A study of Mus musculus with 6 samples.

Results

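The microRNA (miRNA) profile of control bone marrow progenitors was described from 3 microarrays, 1 for each Ctrl mouse. Of 2990 probes on the array, 1083 were named for mouse miRNAs. The array also carries 38 probes of random sequence, and their 95th percentile on each array is called the random-sequence level. Mouse probes were chosen by their deposited intensity: a probe is a member where it exceeded this level on all 3 Ctrl arrays, as 41.6% of the 1083 mouse probes did and the other 632 did not. At the 99th percentile 277 probes (25.6%) would be members. Members were ranked by the mean of their log2 intensities. Because the same values selected the members, they are given as a description, with no test.

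The study compared cKO mice (genotype Rprtf/f, Mx1-Cre+, 3 mice) with their Ctrl littermates (Rprtf/f, Mx1-Cre-, 3 mice). All 6 mice were C57BL/6 females aged 10 weeks that carried floxed alleles of the Raptor gene, which encodes a subunit of the mTORC1 kinase complex. Each mouse, Ctrl mice included, received 7 injections of 400 µg polyinosinic:polycytidylic acid (pIpC). This double-stranded RNA mimic raises interferon, and interferon switches on the Mx1 promoter that drives Cre. Lineage-negative cKit-positive (Lin-cKit+) cells were taken with magnetic beads 10 days after the last injection. The Ctrl profile is therefore that of pIpC-treated mice with intact floxed alleles, and it is a mixture of stem cells and several progenitor stages. In such bulk RNA, fewer cells of a type and less RNA per cell cannot be told apart.

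A miRNA is cut from a hairpin precursor by Drosha and then Dicer, and 1 arm of the resulting duplex is usually kept in an Argonaute protein. Its seed, bases 2 to 8, pairs with target mRNAs, so miRNAs that share a seed are grouped as a family. In blood formation, miR-223 acts in granulocytes, miR-142 is made throughout the blood lineages, miR-126 and miR-125 are known from stem cells, and the miR-17/92 clusters serve proliferating progenitors. Older array names carry a star for the minor arm, or -3p and -5p for the arm's position. Names ending in -P are read here as probes of the precursor, a meaning that the labels do not give. The labelling primed total RNA with random octamers, so precursors and other RNAs could be copied as well as mature miRNAs.

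Mature sequences were matched by name to RefSeq (build GRCm38.p6) for 170 of the 306 members that are not -P probes. Among the 30 brightest mouse probes 9 had a match. They are shown because they carry the top of the profile, with the seed in capitals.
miR-290-5p: aCUCAAACuaugggggcacuuu
miR-615-3p: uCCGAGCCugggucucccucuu
miR-1900: gGCCGCCCucucugguccuuca
miR-212: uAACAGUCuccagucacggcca
miR-92a: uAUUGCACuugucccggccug
miR-466k: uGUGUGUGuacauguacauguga
miR-574-5p: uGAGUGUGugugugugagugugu
miR-223: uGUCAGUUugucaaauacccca
miR-92b: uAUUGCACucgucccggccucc
The seed of miR-92a and miR-92b is the same. The other 7 seeds differ from each other.

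These 9 sequences come from separate places in the genome (GRCm38.p6). The mature miR-290-5p lies at chr7:3218639-3218660 on the plus strand, at the start of the miR-290 cluster. The mature miR-615-3p lies at chr15:103014969-103014990 on the plus strand, inside the gene Hoxc5. The minus-strand miR-1900 at chr9:21032261-21032282 lies inside the interval of Icam5. The mature miR-212 is at chr11:75173443-75173464 on the plus strand. The miR-92a sequence is encoded by 2 hairpins, at chr14:115044476-115044496 on the plus strand and chrX:52741854-52741874 on the minus strand. The miR-466k sequence at chr3:85467396-85467418 (plus strand) overlaps the non-coding gene Gm31419. The miR-574-5p sequence at chr5:64970328-64970350 (plus strand) lies where the intervals of Tlr6 and Fam114a1 overlap. The miR-223 sequence at chrX:96242884-96242905 (plus strand) lies inside the non-coding gene F630028O10Rik, and miR-92b is at chr3:89227126-89227147 on the minus strand.

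The arrays differed little in scale. The random-sequence level was 0.423, 0.463 and 0.445 relative intensity units on the arrays of Ctrl mice 1, 2 and 3. The median over all mouse probes was 0.437, 0.474 and 0.427, so it lay close to that level. Single arrays had 571, 562 and 502 mouse probes above it. Of the 632 probes outside the members, 88 exceeded the level on 2 arrays and 438 on none.

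The 2 mouse probes miR-290-5p and miR-689 stood at the highest value of all 3 Ctrl arrays. These values were 72.6, 79.1 and 74.1, taken as the 16-bit scanner limit of 65535 divided by a constant of each array. Both probes tie there and are read as saturated, so their values are taken as lower bounds with no order between them. miR-290-5p belongs to a cluster known for embryonic stem cells. miR-689 had no sequence match. No other mouse probe came within 1% of the maximum, and 4 came within 5% on at least 1 array, these 2 included. The other pair were miR-1937a and miR-615-3p, both on the array of Ctrl mouse 3.

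Below the limit, miR-1937a had 57.6, 54.3 and 72.9 units in Ctrl mice 1, 2 and 3. miR-615-3p, a miRNA of the Hoxc locus, had 46.9, 41.5 and 72.5 units. miR-720, a sequence known to lie within a transfer RNA, had 47.9, 43.4 and 64.5 units. All 3 probes were highest in Ctrl mouse 3 and lowest in Ctrl mouse 2. miR-543-P followed with 39.8, 46.8 and 49.4 units and miR-1937b with 35.1, 29.6 and 59.8 units. miR-2133 had 37.1, 39.7 and 36.3 units, and miR-1900 had 41.4, 37.4 and 34.1 units. These last 2 probes varied little between mice and did not share the high value of Ctrl mouse 3. miR-1961-P, the last of the 10 brightest, had 32.1, 31.2 and 49.9 units. Of the 10 brightest probes, only miR-290-5p, miR-615-3p and miR-1900 had a matched mature sequence.

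Ranks 11 to 30 ran from means of 32.4 ± 6.31 units for miR-2133-P to 14.6 ± 2.78 units for miR-1224-P (SD, n = 3). They held 10 -P probes: miR-2133-P, miR-1196-P, miR-2134-AP, miR-1965-P, miR-714-P, miR-706-P, miR-2134-3-P, miR-375-P, miR-689-P and miR-1224-P. miR-1196-P spread most among these, with 41.6, 37.5 and 18.3 units. The mature names in this range were miR-714, miR-212, miR-92a, miR-1937c, miR-709, miR-466k, miR-574-5p, miR-223, miR-712 and miR-92b.

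Among the lists of blood and progenitor miRNAs given below, the highest member was at rank 18. miR-92a, the last miRNA of the miR-17/92 cluster, had 19.1, 19.5 and 28.96 units in Ctrl mice 1, 2 and 3. miR-223, the granulocyte miRNA, had 15.1, 16.3 and 16.4 units at rank 27. miR-92b had 12.9, 14.7 and 18.8 units at rank 29. The value of miR-223 was alike in all 3 mice, while miR-92a was higher in Ctrl mouse 3. miR-212, encoded beside miR-132, had 19.8, 23.2 and 29.5 units at rank 16. Of the 29 neighbouring pairs within the 30 brightest probes, 4 kept their order on all 3 arrays and 25 did not, so most neighbouring ranks do not differ beyond the spread between mice. Brightness depends on each probe's binding as well as on the RNA, so the ranks order signals and not RNA amounts.

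**Figure D1:**
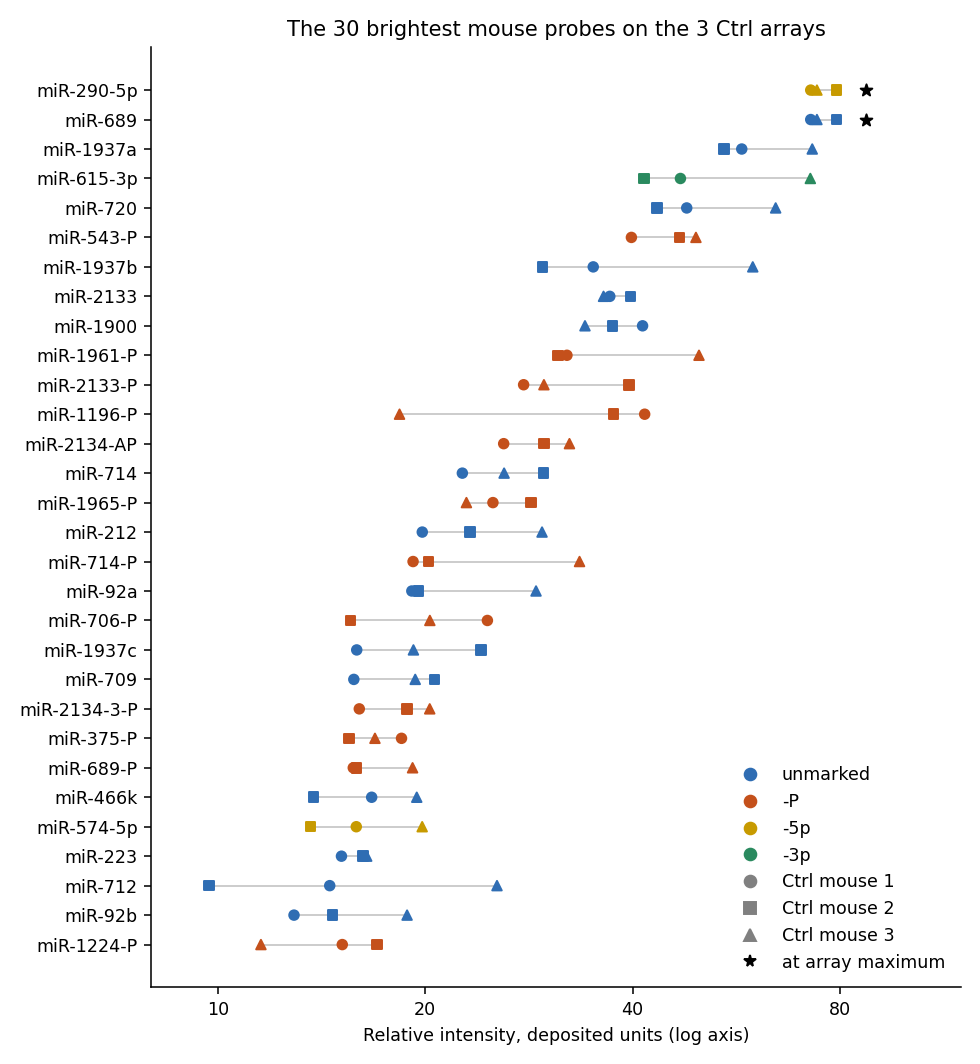
Relative intensity (log axis, deposited units) of the 30 brightest mouse probes, 1 row a probe, with 1 symbol for each of the 3 Ctrl mice, colours for the name class, and a line from the lowest to the highest value. Black stars mark miR-290-5p and miR-689, which sit at the array maximum on all 3 arrays. Of the 30 rows 12 are -P probes, as are 360 of all 1083 mouse probes.

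Signal was concentrated in few probes. The 10 brightest probes carried 28.9%, 26.4% and 31.4% of the summed member intensity in Ctrl mice 1, 2 and 3, and the 30 brightest carried 52.8%, 49.5% and 55.4%. Most members were dim: 36 had a mean over 10 units, 218 lay between 1 and 10 units and 197 lay at or under 1 unit. The median of the member means was 1.14 units.

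By name class, the largest share of members was unmarked names, meaning those with no arm or precursor suffix. Of 455 unmarked probes 235 were members (51.6%), and they carried 52.9%, 52.7% and 54.2% of the member signal in Ctrl mice 1, 2 and 3. The unmarked class includes 6 names ending in -A, of which 3 were members. Of the 360 -P probes 40.3% were members, with 33.1%, 33.8% and 31.0% of the signal. They made up 2 of the 10, 12 of the 30 and 34 of the 100 brightest probes, beside 360 of all 1083 mouse probes. Names with an explicit arm were fewer. The -3p class had 22 members of 74 (29.7%), the -5p class 21 of 74 (28.4%) and the star class 28 of 120 (23.3%). Against 41.6% over all mouse probes, the unmarked class lay above and the 3 arm classes below, and the -P class was near it.

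The strongest -P probes were miR-543-P, miR-1961-P, miR-2133-P, miR-1196-P and miR-2134-AP. The strongest -3p probe was miR-615-3p, followed at a distance by miR-466f-3p with 3.48, 6.51 and 4.01 units. miR-574-3p, miR-290-3p and miR-139-3p came next, at means of 3.45 ± 0.507, 3.36 ± 0.254 and 2.48 units. The strongest -5p probes after miR-290-5p were miR-574-5p with 15.9, 13.6 and 19.8 units and miR-323-5p with 7.52, 5.57 and 11.6 units. miR-466f-5p and miR-466d-5p followed at means of 4.10 and 3.40 units. No star probe was among the 30 brightest. miR-483*, from the Igf2 locus, was the highest with 6.11, 10.6 and 6.32 units at rank 50. miR-467b*, miR-30b*, miR-467d* and miR-30c-1* followed at means of 4.85, 2.55, 2.23 and 2.08 units.

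**Figure D2:**
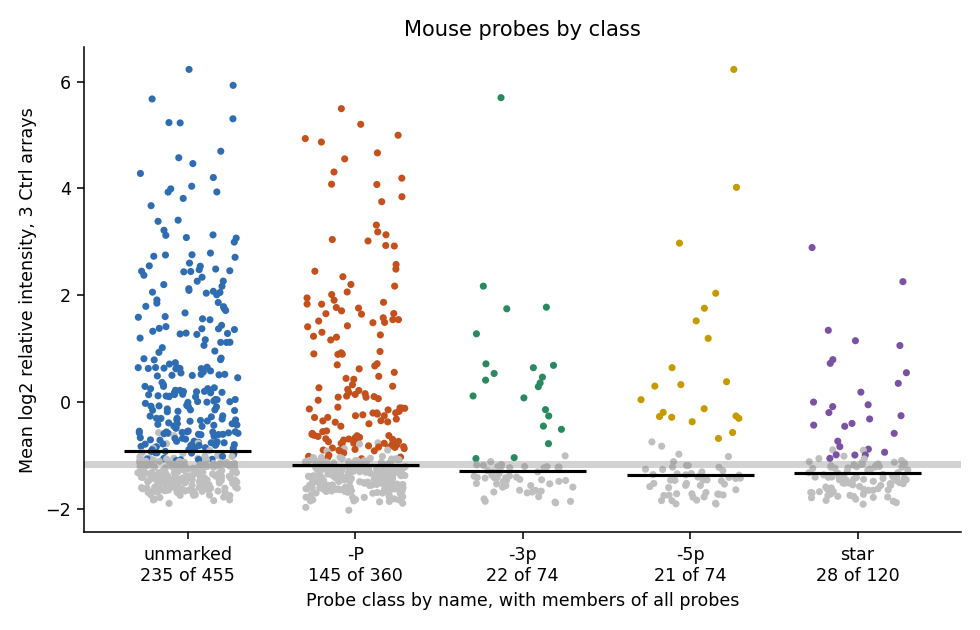
Mean log2 relative intensity over the 3 Ctrl arrays of every mouse probe, 1 point a probe, by name class, with members in colour, other probes in grey, a black line at each class median and a grey band over the range of the 3 random-sequence levels. The unmarked class has the highest share of members (235 of 455), the star class the lowest (28 of 120).

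Probes of the same miRNA were compared between its forms. In 343 pairs of a -P probe and a mature probe of the same miRNA, both were members in 85 pairs, the -P probe alone in 48, the mature probe alone in 102 and neither in 108. Over all mouse probes 40.3% of -P and 51.6% of unmarked probes were members, and whether pairs agreed beyond those shares was not tested. A mature probe can stand in several pairs where its miRNA has several hairpins. The Pearson correlation of the log2 means over the 343 pairs was 0.27, as a description over probes of the same 3 arrays. miR-543-P had a mean of 45.3 ± 4.95 units, while mature miR-543 had 1.14 ± 0.0388 units. Its hairpin lies in the imprinted Dlk1-Dio3 region at chr12:109717258-109717333. miR-1961-P had 37.7 ± 10.6 units, while mature miR-1961 had 0.367 ± 0.0335 units and exceeded the level on no Ctrl array. miR-320-P had 12.7, 14.5 and 13.3 units, while mature miR-320 had 1.09, 1.30 and 0.709 units. These -P probes thus stood far above the mature probe of the same name in every mouse.

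The reverse was also seen. miR-92a averaged 22.5 ± 5.57 units, while miR-92a-1-P had 0.256, 0.320 and 0.294 units and exceeded the level on no array. miR-720-P had a mean of 0.385 ± 0.0489 units beside 51.96 ± 11.1 units for miR-720. miR-223-P averaged 0.495 ± 0.207 units beside 15.9 ± 0.720 units for miR-223. Of the 85 pairs with both probes among the members, the -P probe was the brighter on all 3 arrays in 37 and the mature probe in 30. In 68 of the 343 pairs the 2 probes differed more than 4-fold on all 3 arrays, with at least 1 a member. miR-2133 and miR-2133-P, at means of 37.7 ± 1.81 and 32.4 ± 6.31 units, were among the pairs where both forms were bright.

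**Figure D3:**
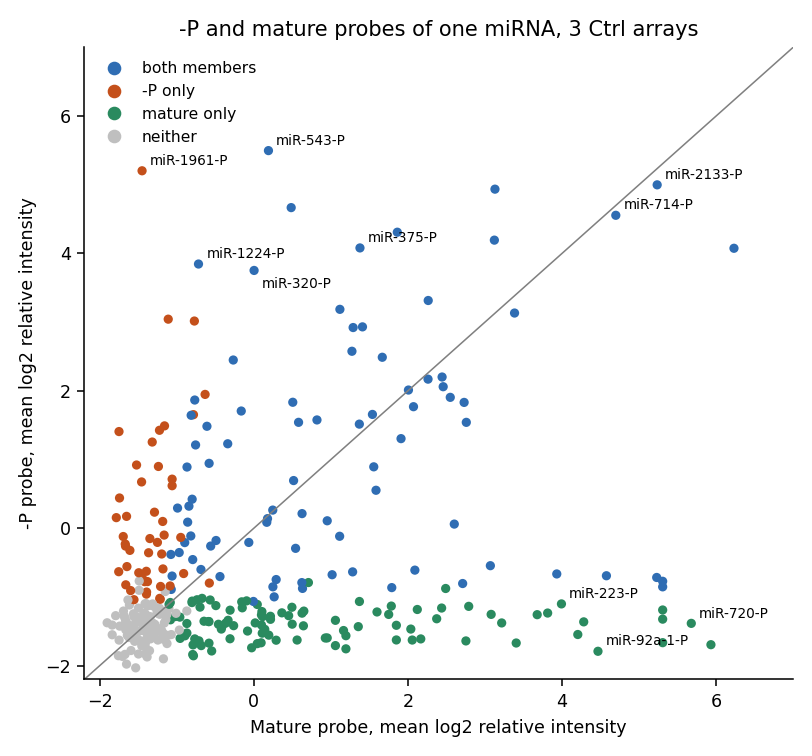
Mean log2 relative intensity over the 3 Ctrl arrays of the -P probe (vertical) against the mature probe of the same miRNA (horizontal) in 343 pairs, with the line of equal values and colours for which of the 2 probes is a member. Points such as miR-543-P and miR-1961-P stand high with a dim mature probe, and miR-92a-1-P and miR-720-P lie at the floor with a bright one.

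Probes of the 2 arms of a hairpin were compared as well. Among 74 hairpins with a -3p and a -5p probe, both arms were members in 12, the -3p arm alone in 10, the -5p arm alone in 9 and neither in 43. For miR-615 the -3p arm averaged 53.7 ± 16.5 units and the -5p arm 1.27 ± 0.277 units. For miR-323, a Dlk1-Dio3 miRNA, the -5p arm averaged 8.23 ± 3.08 units and the -3p arm 0.317 ± 0.0307 units. For miR-574 both arms were members. Among 119 pairs of a star and an unmarked name, both were members in 16, the star alone in 12, the unmarked name alone in 42 and neither in 49. Over all mouse probes 29.7% of -3p, 28.4% of -5p, 23.3% of star and 51.6% of unmarked probes were members. miR-17, a proliferation miRNA, had 3.28 ± 0.144 units and miR-17* 0.324 units. miR-483* averaged 7.68 ± 2.54 units and miR-483 1.55 units, while the human-named miR-483-3p probe had 29.3, 24.1 and 34.5 units on the same arrays. miR-30b* averaged 2.55 ± 0.333 units while miR-30b, at 0.441 ± 0.0785 units, exceeded the level on 2 of 3 arrays.

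By miRNA number, the members fell into 258 families, of which 114 had at least 2 members. The families with the most members were miR-669 (20 of 27 probes), miR-466 (19 of 21), miR-467 (10 of 16) and miR-297 (8 of 10). The let-7 family also had 8, of 19 probes, and at 42.1% was near the 41.6% over all mouse probes. miR-669, miR-466, miR-467 and miR-297 form a rodent repeat family whose hairpins stand in many near-identical copies, so their probes may share signal. Of its 74 probes 57 were members (77.0%), and 43 of these averaged over 1 unit. They carried 8.49%, 7.81% and 8.51% of the member signal in Ctrl mice 1, 2 and 3. Only miR-466k, with 16.7, 13.8 and 19.4 units, was among the 30 brightest. miR-467f-P and miR-467h came next with means of 7.66 ± 0.890 and 7.00 ± 1.31 units. The miR-1937 family, with 5 members of 10 probes, carried 6.56%, 5.98% and 8.18% of the signal, nearly all of it in miR-1937a, miR-1937b and miR-1937c.

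Among members with a matched mature sequence, 21 seeds were shared by at least 2 members. Sequences from the seeds with the most members are shown, because these seeds recur most often among the matched members. Capitals again mark the seed.
miR-92a: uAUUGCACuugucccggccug
miR-25: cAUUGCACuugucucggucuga
miR-32: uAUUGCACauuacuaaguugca
miR-363: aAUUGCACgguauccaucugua
miR-17: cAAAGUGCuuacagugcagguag
miR-20a: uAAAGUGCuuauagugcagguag
miR-20b: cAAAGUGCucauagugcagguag
miR-106a: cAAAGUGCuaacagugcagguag
let-7b: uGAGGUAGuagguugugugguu
let-7c: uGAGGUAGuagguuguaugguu
let-7f: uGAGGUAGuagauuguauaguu
miR-181a: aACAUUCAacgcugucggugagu
miR-181b: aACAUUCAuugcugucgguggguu
Whether a miRNA bound to a relative's probe was not tested.

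Of the 320 matched mouse probes 53.1% were members, and the seed groups named here were chosen for having the most members. The let-7 seed, of a family known for promoting differentiation, was held by 9 matched mouse probes, and 8 were members. They ran from let-7b (2.75, 2.20 and 2.59 units) and let-7c (1.71, 1.72 and 1.83 units) down to let-7f (0.596, 0.747 and 0.720 units). The ninth, miR-1961, exceeded the level on no Ctrl array. miR-98, of the let-7 list by name, did so on 2 and was no member. The 6 matched probes with the miR-17 seed AAAGUGC were all members. miR-20b led them with 4.68, 4.40 and 4.70 units, then miR-17 with 3.11, 3.37 and 3.35 units and miR-20a with 2.18, 2.26 and 2.06 units. miR-106b, miR-106a and miR-93 averaged 1.26 ± 0.169, 0.958 ± 0.237 and 0.945 ± 0.122 units. The order of miR-20b, miR-17 and miR-20a was the same on all 3 arrays.

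The 5 matched probes with the seed AUUGCAC were also all members, but spanned a wider range. Below miR-92a and miR-92b, miR-25 had 1.97, 2.73 and 3.21 units and miR-32 had 2.60, 2.62 and 2.10 units, so these ranges overlapped. miR-363 had 0.475, 0.487 and 0.518 units, just above the random-sequence level. The miR-181 seed ACAUUCA, of miRNAs known from lymphoid cells, was held by 4 members of 4 matched probes. miR-181d and miR-181b had means of 4.17 ± 0.298 and 3.61 ± 0.148 units, and miR-181a had 1.56 ± 0.0967 units. There were 3 members each with the seed GCUACAU (miR-1928, miR-221 and miR-222), AGCAGCA (miR-16, miR-15a and miR-195, of 4 probes) and AGCACCA (miR-29a, miR-29c and miR-29b). The seed CUCAAAC joined miR-290-5p to miR-292-5p, which averaged 0.844 ± 0.204 units. The pair miR-26b and miR-26a shared UCAAGUA at means of 8.03 ± 1.17 and 2.29 ± 0.168 units. The pair miR-449c and miR-449a shared GGCAGUG, a seed with 4 matched probes.

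Members were also placed by the position of their hairpins. There were 35 groups of at least 2 hairpins, neighbours lying at most 10 kb apart, with at least 2 matched probes. In 21 of them at least 2 probes were members, in 8 only 1 was and in 6 none. Of the matched probes in these groups 49.6% were members, against 53.1% of all matched mouse probes. Star probes stood in the matched set only where they were members, so the matching raises both shares. Of the Mir17 to Mir92-1 cluster at chr14:115043671-115044506, 5 of 6 matched probes were members, and miR-18a, at 0.323 ± 0.0333 units, was not. All 5 matched probes of the Mir363 to Mir106a cluster (chrX:52741693-52742567) and all 4 of the Mir25 to Mir106b cluster (chr5:138165321-138165818) were members. These counts leave out the -P probes and the star probes that were not members. With such probes included, the miR-17/92 list given below had 11 members of 24 probes. The clusters on chromosomes 14 and X both encode miR-92a and miR-19b, so those 2 probes count in each. All 4 matched probes of the Mir23a cluster at chr8:84208518-84208921 were members as well. miR-23a, a myeloid miRNA, had 7.10, 7.42 and 11.5 units, its cluster mate miR-24 0.996 ± 0.0965 units and miR-27a 0.744 ± 0.181 units. Of the Mir379 cluster on chromosome 12 (chr12:109709060-109747960), 9 of 19 matched probes were members.

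GC content of the mature sequence had little relation to the order. Over the 170 matched members the correlation of GC percent with mean log2 intensity was 0.12 (Pearson) and 0.10 (Spearman), as a description over probes of the same 3 arrays. Among matched mouse probes the share of members was 51.8% of 56 probes under 40% GC and 56.1% of 66 probes at 60% GC or more. It was 53.1% over all 320 matched probes, where star probes stood only if they were members.

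Lists of miRNAs for blood cells and for other tissues were set beside the members. Over all 1083 mouse probes 41.6% were members and the median of the mean log2 values was -1.17. The blood-enriched list had 8 members of 18 probes and a median of -1.17. Its highest probes were miR-223, miR-181b and miR-155, the last a miRNA known from immune activation, with 1.70, 1.59 and 1.41 units. miR-142-5p averaged 1.23 ± 0.0949 units, but the -3p arm had 0.420, 0.446 and 0.409 units and exceeded the level on no Ctrl array. miR-126-3p, a miRNA of stem cells and endothelium, had 0.374, 0.405 and 0.363 units, and miR-126-5p averaged 0.397 ± 0.0611 units, neither above the level on any Ctrl array. The human-named probe of miR-142-3p averaged 0.393 ± 0.0294 units, also below the level on each array. The markers of the labelled cell type were thus divided: the probes of miR-142-3p and miR-126 lay below the level, while miR-223, miR-181b, miR-155 and miR-142-5p were members. A probe below the level does not show that its miRNA is absent, and a probe above it does not show that its miRNA is present. Of 93 mismatch probes, which differ from a human miRNA by design according to their names, 48 (51.6%) passed the same rule.

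The stem cell enriched list had 9 members of 24 probes (median -1.18), or 3 at the 99th percentile. Its highest were miR-196a at 1.09 ± 0.172 units, miR-130a at 0.981 ± 0.0401 units and miR-196b-P at 0.915 ± 0.110 units. miR-125a-5p and miR-125b-5p, known from stem cells, had means of 0.382 ± 0.0178 and 0.338 ± 0.0245 units and exceeded the level on no Ctrl array. The miR-17/92 list had 11 members of 24 probes (median -1.06). None of its 5 -P probes was a member. The myeloid list had 7 members of 15 (median -1.10), led by miR-223, miR-23a and miR-24-2* at 1.68 ± 0.400 units. miR-21, also in that list, had 0.431, 0.478 and 0.418 units and exceeded the level in 2 mice.

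The lymphoid list had 13 members of 24 (median -0.97), or 7 at the 99th percentile, led by miR-26b, miR-181b and miR-26a. miR-150, of mature lymphocytes, was near the level with 0.609, 0.600 and 0.482 units. The erythroid list had 4 members of 11 (median -0.97), with miR-16, miR-486 and miR-15a at 1.29 ± 0.152, 0.908 ± 0.183 and 0.755 ± 0.0788 units. miR-451, the erythroid miRNA made without Dicer, had 0.650, 0.461 and 1.00 units, high in mouse 3 and under the level in mouse 2. miR-144, its cluster mate, exceeded the level in 2 mice. The let-7 list had 8 members of 21 (median -1.14), and all of its star and -P probes lay outside.

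Lists of other tissues had fewer members, with exceptions. The epithelial list had 0 members of 13 (highest mean 0.458 ± 0.0686 units, miR-200a*), and the liver list, miR-122 alone, had 0 of 1 at 0.432 ± 0.0364 units. The muscle list had 1 of 12, miR-208b-P at 1.12 ± 0.176 units. The stromal list had 2 of 10, miR-214 at 0.909 ± 0.146 units and miR-199b at 0.697 ± 0.216 units, while miR-143 and miR-145 exceeded the level on no array. The brain list had 2 of 7, miR-128 at 0.886 ± 0.0688 units and miR-9 at 0.531 ± 0.109 units, and 0 at the 99th percentile. The endocrine list had 4 of 6, led by miR-375-P with 18.5, 15.5 and 16.9 units, then miR-375 and miR-7b at 2.64 ± 0.583 and 0.808 ± 0.0524 units. miR-375 is known from pancreatic islets.

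The embryonic stem cell list had 8 members of 24 (median -1.24), or 4 at the 99th percentile, led by the saturated miR-290-5p, with miR-290-3p next at 3.36 ± 0.254 units and miR-292-3p at 1.56 ± 0.148 units. The other members ran from miR-293 at 1.10 ± 0.0920 units to miR-302d at 0.613 ± 0.169 units. The Dlk1-Dio3 list had 22 members of 88 (median -1.39), or 16 at the 99th percentile. Its highest were miR-543-P, miR-494 with 11.5, 15.8 and 6.52 units, and miR-323-5p. The repeat family, with 57 members of 74 or 50 at the 99th percentile, had a median of 0.21 and at both levels the highest share among the lists of 20 or more probes.

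**Figure D4:**
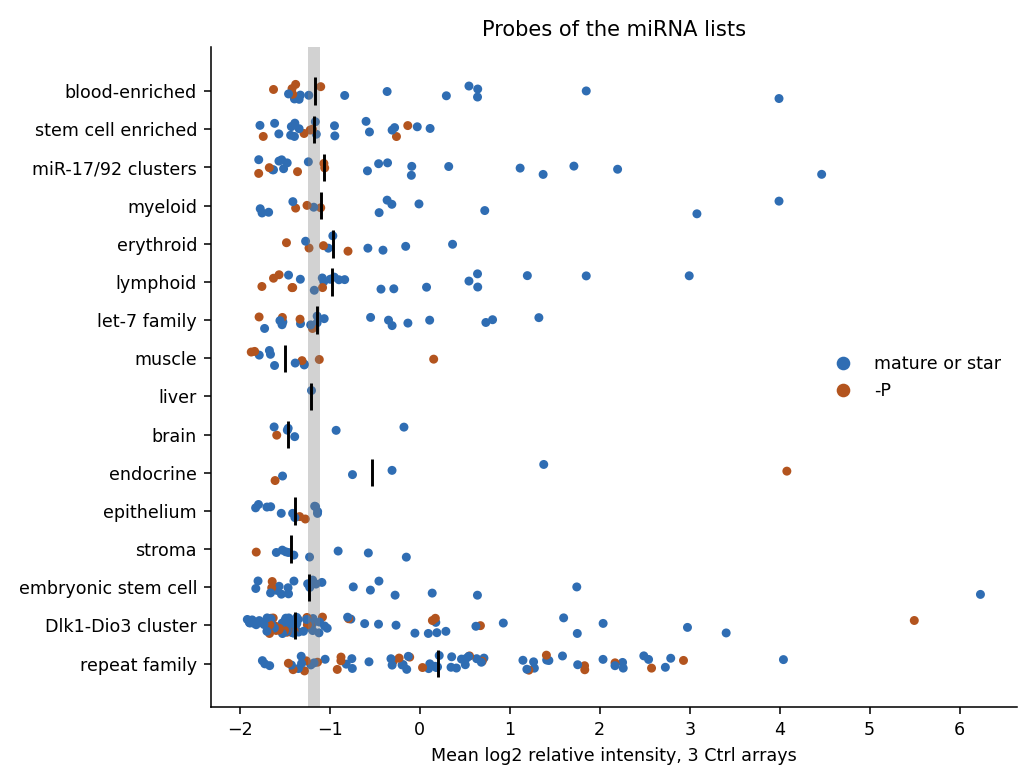
Mean log2 relative intensity over the 3 Ctrl arrays of each probe in 16 miRNA lists, 1 point a probe, with mature and star probes in blue and -P probes in orange, black ticks at the list medians and a grey band over the 3 random-sequence levels. The repeat family has its median above the band, while most probes of the epithelial and muscle lists lie in or left of it.

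The array also carries 1737 probes named for human miRNAs, of which 646 (37.2%) passed the same rule on Ctrl RNA, and 441 had a mouse probe of the same name. These served as a second reading on the same arrays. In 168 of these pairs the mouse probe was a member, and in 75.0% of the 168 the human-named probe passed too. The human-named probe alone passed in 55 pairs and neither in 218. Over the 441 pairs the mean log2 values correlated at 0.80 (Pearson) and 0.61 (Spearman), as a description, and 85.5% of the pairs lay within 2-fold. That share includes the 218 pairs with neither probe above the level. In the 139 pairs that are not -P and have a mouse member, 78.4% lay within 2-fold. The correlations there were 0.83 (Pearson) and 0.71 (Spearman). For miR-223 the mouse and human-named probes averaged 15.9 ± 0.720 and 18.2 ± 0.694 units, for miR-92a 22.5 ± 5.57 and 19.9 ± 4.98 units, and for miR-23a 8.67 ± 2.44 and 7.87 ± 1.45 units. For these miRNAs the readings overlapped or lay close.

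Other names did not repeat. miR-615-3p averaged 53.7 ± 16.5 units on the mouse probe and 10.1 ± 1.67 units on the human-named one. miR-320-P had 13.5 ± 0.889 and 2.28 ± 0.428 units. miR-543-P was at the array maximum on the human-named probe on all 3 Ctrl arrays. miR-125a-5p, at 0.382 ± 0.0178 units on the mouse probe, averaged 3.84 ± 0.227 units on the human-named one. miR-122 and miR-124, of liver and brain, had 0.432 ± 0.0364 and 0.360 ± 0.0205 units on the mouse probes and 2.26 ± 0.134 and 5.28 ± 0.324 units on the human-named ones. miR-329 and miR-718-P were members on the mouse probe while the human-named probe averaged 0.379 ± 0.0256 and 0.413 ± 0.0227 units. The sequences of these probes were not used here, and the reason for the differences was not tested.

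**Figure D5:**
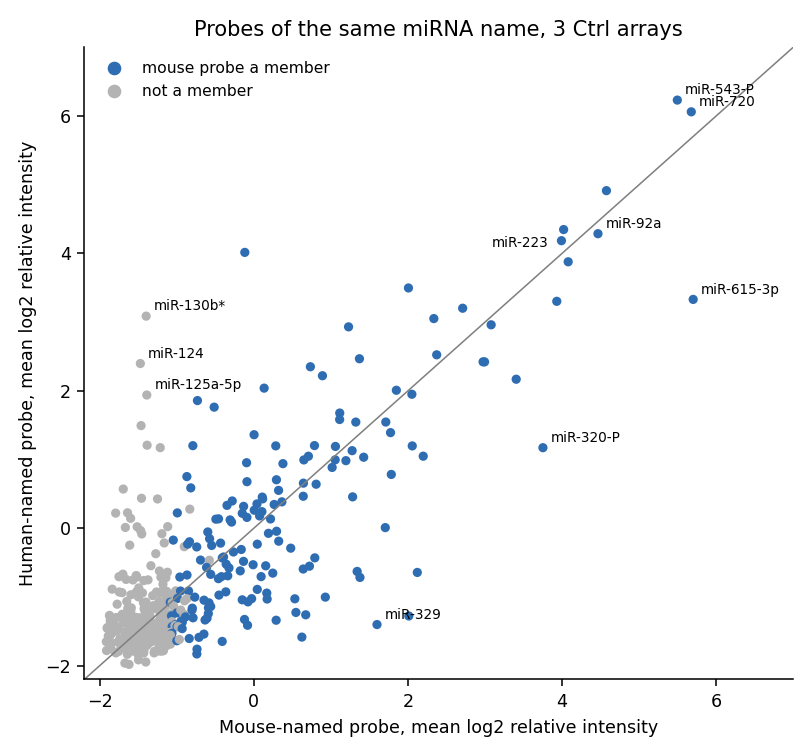
Mean log2 relative intensity over the 3 Ctrl arrays of the human-named probe (vertical) against the mouse probe of the same miRNA name (horizontal) in 441 pairs, with the line of equal values and mouse members in blue. Bright pairs such as miR-223 and miR-92a lie near the line, and miR-615-3p, miR-320-P, miR-124 and miR-125a-5p lie far from it.

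Values of the members were alike between mice. The rule asks for signal on all 3 of these arrays, so it fixes part of this likeness in advance. The wide range of brightness over probes also raises the correlations. Over the members the pairwise Pearson correlation of log2 values was 0.967 to 0.982, and 446, 449 and 439 members lay within 2-fold for mice 1 and 2, 1 and 3, and 2 and 3. The median SD of the log2 value was 0.20, and 17 members had an SD over 0.5. The steadiest were miR-29c, miR-1224, miR-466b-3p, miR-138* and miR-1969-P. The most variable were miR-2140-AP with 3.26, 6.38 and 1.86 units, miR-2141, miR-2140, miR-712 with 14.5, 9.69 and 25.4 units, and miR-494. In miR-2140-AP, miR-2141, miR-2140 and miR-494 the array of Ctrl mouse 2 was highest and that of Ctrl mouse 3 lowest.

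The threshold cut through a dense range of values. Just inside it were miR-29c* with 0.480, 0.585 and 0.448 units, miR-29b with 0.427, 0.490 and 0.501 units, and miR-204-P with 0.714, 0.834 and 0.450 units. Just outside were miR-551b with 0.451, 0.463 and 0.455 units, miR-1945 with 0.744, 0.461 and 0.585 units, and miR-451.

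The 3 cKO arrays did not enter the choice of members. On them 440 members again exceeded the random-sequence level of each array and 11 did not. Of all 1083 mouse probes 561 (51.8%) exceeded it there. These 11 were dim in Ctrl cells, at ranks 357 to 448, and 1 of them, miR-190b, exceeded the level on no cKO array. Of the 30 brightest mouse probes on the Ctrl arrays, 24 were among the 30 brightest on the cKO arrays, and of the 10 brightest 4 were among the 10 brightest there. Of the 30 brightest on the Ctrl arrays, 6 fell outside the 30 brightest on the cKO arrays, where they ranked between 31 and 55. They were miR-1961-P, miR-2134-3-P, miR-375-P, miR-689-P, miR-712 and miR-1224-P. The saturated miR-290-5p was at the maximum on all 3 cKO arrays and miR-689 on 1.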

How the data were processed

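Arrays from 3 Ctrl mice, and for a check 3 cKO mice, were used as deposited. Per the labels' protocols, 5 µg of RNA was copied into cDNA with random octamers carrying biotin and read by streptavidin-Alexa647 on an Axon 4000B scanner. The authors deposited 1 relative intensity value per probe and array. How they corrected background or normalized is not given in the sources used. Each array was multiplied by the 1 constant (829 to 903 on Ctrl arrays) that sets its maximum to 65535. At least 99.97% of values then fell in steps of 0.25. No background subtraction was visible, but a subtraction in such steps would leave them unchanged.

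The values were used without further normalization or a floor, on the log2 scale, with Python 3.11.15, pandas 2.3.3, numpy 2.4.6 and matplotlib 3.10.9. No statistical test was run. The members and lists were chosen with earlier results of these data known. Named probes are the 30 brightest, those at the maximum, the highest 5 of each name class and 3 of each list, those beside the threshold, the 5 steadiest and 5 most variable, and the 10 seed groups with most members. Other probes named were chosen after their values were seen. The number of arrays limits the precision. Alternatives were other thresholds, scalings and arrays left out.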

Additional observations from a re-analysis of the deposited data

Results flagged for a closer look

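Probes outside the mouse set gave signal on the Ctrl arrays above the random-sequence level. Among human-named probes 4 stood at the array maximum on all 3 Ctrl arrays: hsa-miR-1273c, hsa-miR-4329-P, hsa-miR-543-P and hsa-mir-565-A. Another 3, hsa-mir-594-A, hsa-miR-720 and hsa-miR-937, did so on 1 or 2 arrays. Of 1296 human-named probes without a mouse probe of the same name, 465 (35.9%) exceeded the level on all 3 Ctrl arrays. Of 93 mismatch probes, which differ from a human miRNA by design according to their names, 48 (51.6%) exceeded it. Of 32 probes for ultraconserved regions, 7 (21.9%) exceeded it. The share among mouse probes was 41.6%, and no cause of these signals was tested.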

How the results depend on the processing

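With the 99th in place of the 95th percentile the members were 277, and with the highest random-sequence probe 233. With the mean plus 2 SD of those probes they were 370, by mean value 545, with 1 value per miRNA name 324, without the repeat family 394, and with 1 Ctrl array left out 465 to 501. The shared seeds fell to 8 and the cKO count to 328 at the 99th percentile, against 21 and 561. The -P share of members was 32.2% for mouse and 34.985% for human-named probes. Under 5 other scalings or averages all 30 brightest probes were kept, with an array left out 29, and 24 on the cKO arrays. Median centring, among these 5, could not change the order. Of 64 list counts 13 moved by over 1.5 times, 9 of them at the 99th percentile. At that level the stem cell enriched list had 3 members, the myeloid 4, erythroid 2, lymphoid 7, let-7 5, brain 0, endocrine 2, stromal 1 and embryonic stem cell list 4. The muscle list had 2 without Ctrl mouse 3, the liver list 1 without Ctrl mouse 2, and the epithelial list 1 without either. Of 240 values of named probes 30 moved by more than their SD, all under median centring, which shifts every probe by the same 1.17 (log2). No paired analysis was possible because the results come from no test between groups. Probes near the random-sequence level cannot be ordered, the saturated pair has lower bounds only, and relative probe affinity was not measured.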
